A study of Mus musculus with 12 samples.

Results

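The TNF superfamily ligands described here are 10 genes: Tnf, Lta, Ltb, Tnfsf10, Tnfsf11, Tnfsf13, Tnfsf13b, Tnfsf14, Tnfsf15 and Fasl. Every array probe whose transcript accession belongs to 1 of these genes was taken, which gave 12 probes for 9 genes out of 56605 probes for 24232 named genes. Tnf, Tnfsf11 and Tnfsf15 had 2 probes each, and no probe was matched to Tnfsf13, so it is not analysed here. No value of these arrays enters the matching of probes to these genes, but the genes were chosen with earlier results of these data known.

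Gene expression was measured in DCs grown from the bone marrow of female C57BL/6 mice with GM-CSF and IL-4, a culture that yields antigen-presenting cells but can hold other blood cells. All cells, those of the controls included, were matured with LPS, a component of the bacterial outer membrane, at 1 μg/ml for 24 h. DC Young came from untreated mice of 2 months and DC Dysbiotic from mice of 2 months whose drinking water held ampicillin, neomycin, metronidazole and vancomycin for 21 days. DC Old came from untreated mice of 24 months and DC Old-LP from mice of 24 months that were fed Lactobacillus plantarum (LP) for 21 days. Each group had 3 arrays, named A, B and C, and each array carried RNA pooled from 3 mice. There was no group without LPS, so the LPS response of the ligands themselves cannot be read from these arrays.

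TNF superfamily ligands are mostly made as trimers in the cell membrane, from which several are cut off as soluble cytokines. They bind receptors on neighbouring cells that signal through TRAF adapters to NF-κB, or through death domains to caspases. In DCs and the lymphocytes they meet, these ligands take part in inflammation (TNF), in lymphoid tissue organisation (lymphotoxins), in B cell survival (BAFF, encoded by Tnfsf13b), in T cell co-stimulation (LIGHT, encoded by Tnfsf14, and TL1A, encoded by Tnfsf15), in DC survival and bone resorption (RANKL, encoded by Tnfsf11) and in killing of target cells (TRAIL, encoded by Tnfsf10, and FasL).

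The arrays were of unequal quality. All A and B arrays shared 1 slide, on which 61.2% to 66.4% of spots were well above background. The C arrays of DC Young and DC Dysbiotic lay on the second slide and those of DC Old and DC Old-LP on the third, with 37.3% to 46.0% of spots well above background. The C array of DC Old was the dimmest. A comparison of DC Old with DC Young within 1 slide therefore rests on A and B alone, whereas DC Old-LP can be set against DC Old within the first and the third slide. All 10 dendritic cell markers checked, among them Itgax, H2-Ab1 and Cd86, had a probe, and 9 of them were well above background on all 12 arrays. Their summed signal, which is weighted to the brightest markers, had a log2 of 18.35 to 18.78 on all 12 arrays. Their median log2 fold change was -0.11 for DC Old relative to DC Young, with 4 of 10 above 0 and 6 below. Single markers did differ. Cd86 and Cd83, 2 of 10, were lower in DC Old without overlap, where 5.25% of all probes were. H2-Ab1 had 16.74, 16.92 and 15.82 in DC Young and 17.62, 17.38 and 16.86 in DC Old. H2-Aa, which encodes the other chain of this MHC class II molecule, went the other way. It had 14.42, 14.80 and 15.345 in DC Young and 13.31, 13.15 and 14.99 in DC Old. Because the samples are bulk RNA, fewer cells of a type and less RNA per cell cannot be told apart.

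The promoters of 4 ligands are printed here, each running from 250 bases before the transcript start to 50 bases from it, so that the regulatory sequence can be read beside the expression values. Ltb, Tnfsf14 and Tnfsf13b were chosen after their values were seen, as ligands well above background on all 12 arrays whose DC Old-LP arrays all lay above all DC Old arrays, and Tnf as the neighbour of Ltb that overlapped. The sequences are from RefSeq on GRCm38.p6, whereas the array headers name mm9. Capitals mark matches on either strand to the NF-κB consensus, the AP-1 site TGANTCA or the interferon response element, 2 copies of GAAA parted by 2 bases of any kind. The windows lie at chr17:35194257-35194556 on the plus strand for Ltb, chr17:57194132-57194431 on the minus strand for Tnfsf14, chr8:10006383-10006682 on the plus strand for the second of the Tnfsf13b starts, and chr17:35201958-35202257 on the minus strand for Tnf.
Ltb: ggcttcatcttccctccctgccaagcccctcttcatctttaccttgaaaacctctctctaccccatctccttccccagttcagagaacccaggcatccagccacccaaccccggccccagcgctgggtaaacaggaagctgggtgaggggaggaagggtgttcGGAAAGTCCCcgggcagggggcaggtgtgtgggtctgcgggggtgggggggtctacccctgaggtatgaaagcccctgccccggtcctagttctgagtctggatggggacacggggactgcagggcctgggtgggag
Tnfsf14: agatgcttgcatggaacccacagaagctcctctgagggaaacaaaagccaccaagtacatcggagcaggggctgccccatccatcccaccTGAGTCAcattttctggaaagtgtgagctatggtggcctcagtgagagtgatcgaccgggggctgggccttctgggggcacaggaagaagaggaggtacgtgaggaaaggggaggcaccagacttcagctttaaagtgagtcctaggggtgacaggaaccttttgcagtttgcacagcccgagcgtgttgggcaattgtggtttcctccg
Tnfsf13b: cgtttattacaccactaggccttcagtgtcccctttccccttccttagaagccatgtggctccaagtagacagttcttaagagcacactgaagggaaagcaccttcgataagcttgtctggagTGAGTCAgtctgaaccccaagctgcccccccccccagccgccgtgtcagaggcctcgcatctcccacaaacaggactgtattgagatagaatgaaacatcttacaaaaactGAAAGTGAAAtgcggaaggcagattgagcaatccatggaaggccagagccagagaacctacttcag
Tnf: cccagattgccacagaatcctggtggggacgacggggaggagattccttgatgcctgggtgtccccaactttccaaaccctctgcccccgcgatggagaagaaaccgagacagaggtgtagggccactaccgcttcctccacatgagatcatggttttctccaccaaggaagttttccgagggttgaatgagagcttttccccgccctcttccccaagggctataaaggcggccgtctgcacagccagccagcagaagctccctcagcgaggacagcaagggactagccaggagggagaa

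The Ltb window held 1 NF-κB consensus match, which begins at position -87 from the start. The Tnfsf14 window held 1 AP-1 match at -160. The Tnfsf13b window held an AP-1 match at -127 and an interferon response element at -16. None of these 3 motifs was found in the Tnf window, which says only that these letters are not in it. The windows of Lta, Tnfsf10, Tnfsf11, Tnfsf15 and Fasl, which are not printed, held none of them either. Of these genes, Tnfsf10 and Tnfsf11 also had DC Old-LP arrays that all lay above all DC Old arrays. The Tnfsf13 window and the first Tnfsf13b window, also not printed, each held 1 AP-1 match. The matches shown do not overlap each other. Among 32851 RefSeq promoters of the same length, 8.46% held the NF-κB consensus, 7.81% the AP-1 site and 3.44% the interferon response element. A match is a description of the sequence and no factor binding was measured. On chromosome 17, Ltb, Tnf and Lta follow each other with the microRNA gene Mir6973a between Ltb and Tnf.

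No ligand probe passed the test in any of the 6 comparisons between groups. A call required a log2 fold change of 0.5 or more in size and a p, adjusted by Benjamini-Hochberg over all probes, no higher than 0.05 in the limma fit to all 12 arrays. For DC Old relative to DC Young 0 of 12 ligand probes were called, where 0.62% of all probes were, and for DC Old-LP relative to DC Old again 0 of 12, where 0.348% were. The shares of all probes called were 0.344% for DC Dysbiotic relative to DC Young, 0.163% for DC Old-LP relative to DC Dysbiotic, 0% for DC Old-LP relative to DC Young and 0.00177% for DC Old relative to DC Dysbiotic. When the replicate letter was a block, again 0 of 12 were called in each comparison, where 2.18% of all probes were called for DC Old relative to DC Young, 0.984% for DC Dysbiotic relative to DC Young and 1.65% for DC Old-LP relative to DC Old. With unadjusted p no higher than 0.05 and the same fold, 2 of 12 passed for DC Old relative to DC Young, where 6% of all probes did, and 5 of 12 for DC Old-LP relative to DC Old, where 5.79% did. What follows gives the normalised log2 signal on each array, where 1 unit is a doubling, and says where the groups did not overlap.

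**Figure D1:**
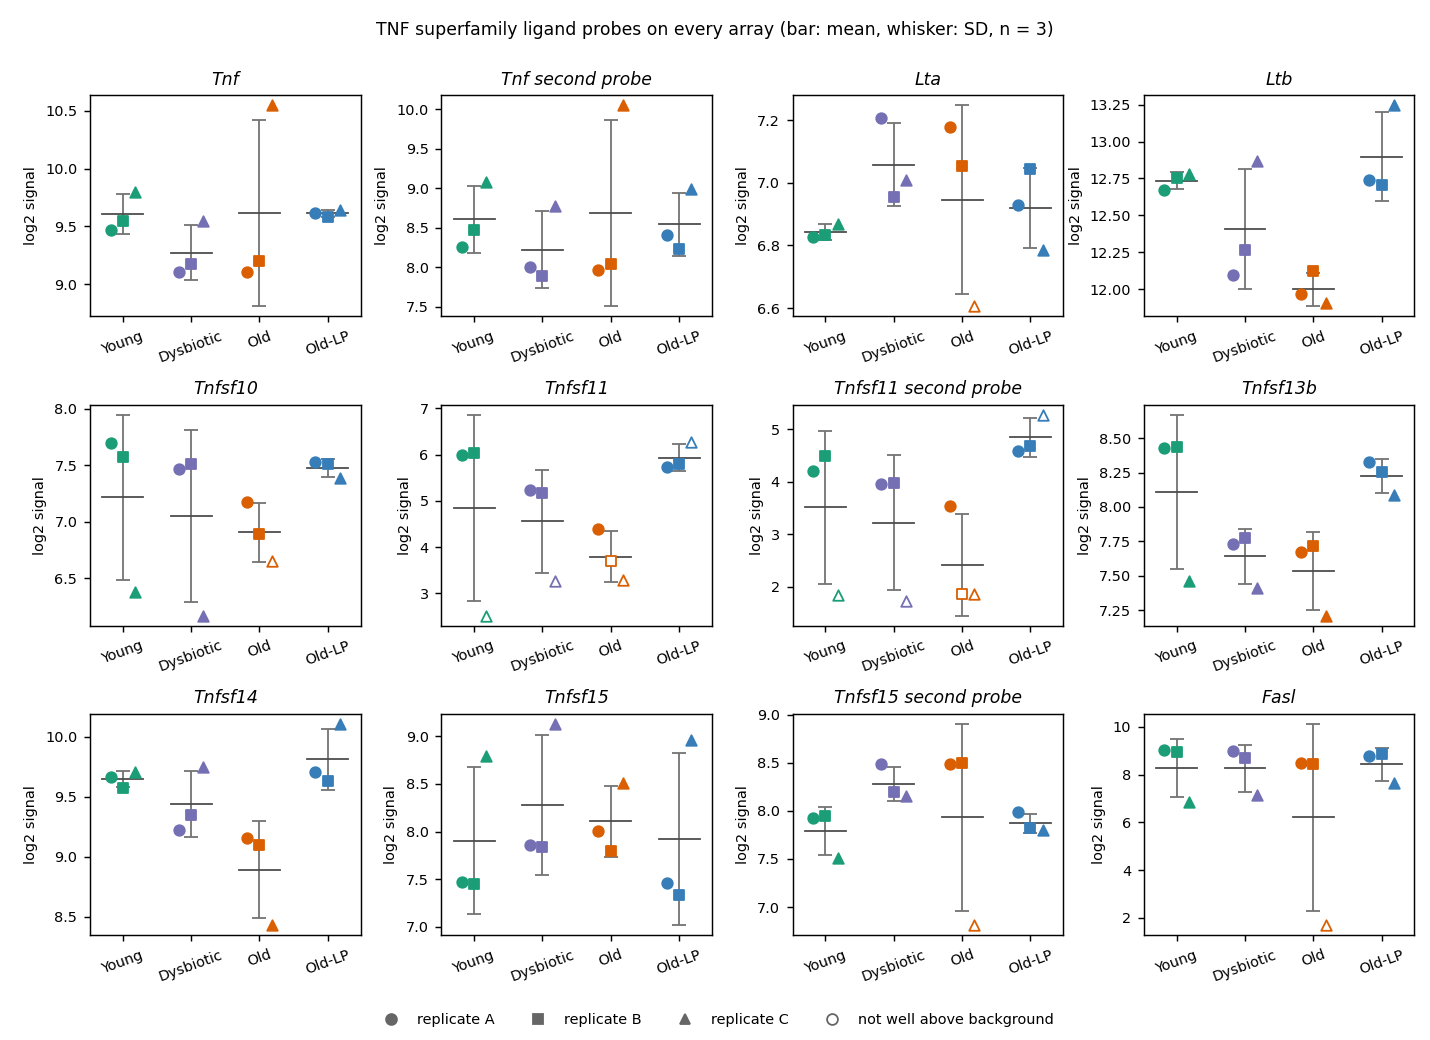
Quantile normalised log2 signal (y axis) of the 12 ligand probes on the 3 arrays of each group (x axis), with the mean as a bar, the SD as a whisker, and open symbols where a probe was not well above background. Ltb and Tnfsf14 were lower on all 3 DC Old arrays than on any DC Young or DC Old-LP array, and the low Fasl mean of DC Old comes from its C array at 1.70. Each panel has its own y axis, and levels of different probes are not to be compared.

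Ltb encodes lymphotoxin β, the membrane anchor that holds lymphotoxin α at the cell surface as a ligand of the lymphotoxin β receptor. Its log2 signal was 12.67, 12.75 and 12.78 in DC Young, 11.96, 12.12 and 11.90 in DC Old, and 12.74, 12.71 and 13.25 in DC Old-LP. DC Dysbiotic had 12.09, 12.27 and 12.87. The DC Old arrays were all below every DC Young and every DC Old-LP array, whereas DC Dysbiotic had 2 low arrays and a C array above all DC Young arrays. The SD over the 3 arrays was 0.11 in DC Old, 0.06 in DC Young, 0.41 in DC Dysbiotic and 0.30 in DC Old-LP, so the DC Old and DC Young arrays lay further apart than their own spread. In order of level, DC Old-LP and DC Young did not differ beyond their spread, and DC Dysbiotic overlapped with every other group. The log2 fold change was -0.74 (SE 0.26, adjusted p = 0.504 in limma) for DC Old relative to DC Young and 0.90 (SE 0.26, adjusted p = 0.341) for DC Old-LP relative to DC Old. Neither passed the threshold. Without the dim C array of DC Old they were -0.69 and 0.85, so this array did not set the size of the Ltb differences.

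Tnfsf14 encodes LIGHT, a co-stimulatory ligand that binds HVEM and the lymphotoxin β receptor. Its log2 signal was 9.66, 9.57 and 9.70 in DC Young and 9.15, 9.09 and 8.43 in DC Old. In DC Old-LP it was 9.71, 9.63 and 10.11, and in DC Dysbiotic 9.22, 9.35 and 9.75. As for Ltb, the DC Old arrays lay below all arrays of DC Young and DC Old-LP, and here also below all arrays of DC Dysbiotic. The log2 fold change was -0.75 (SE 0.26, adjusted p = 0.516 in limma) for DC Old relative to DC Young and 0.92 (SE 0.26, adjusted p = 0.351) for DC Old-LP relative to DC Old. Without the C array of DC Old the values were -0.52 and 0.69. Ltb and Tnfsf14 were the only 2 of 12 ligand probes without overlap between DC Old and DC Young, both lower in DC Old, where 5.25% of all probes were lower without overlap.

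Tnfsf13b encodes BAFF, a survival factor for B cells. Its log2 signal was 8.43, 8.44 and 7.46 in DC Young, 7.73, 7.78 and 7.41 in DC Dysbiotic, 7.67, 7.72 and 7.21 in DC Old, and 8.33, 8.25 and 8.09 in DC Old-LP. The A and B arrays of DC Young and all arrays of DC Old-LP were high, and the C array of DC Young lay among the low values of DC Dysbiotic and DC Old. The log2 fold change was -0.58 (SE 0.30, adjusted p = 0.962 in limma) for DC Old relative to DC Young and 0.69 (SE 0.30, adjusted p = 0.818) for DC Old-LP relative to DC Old. DC Old-LP lay above DC Old and above DC Dysbiotic without overlap.

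Tnfsf11 encodes RANKL, which binds RANK on DCs and on osteoclast precursors. Its leading probe, the one with the higher mean signal, was well above background on 7 of 12 arrays and on no C array. The log2 signal was 5.98, 6.04 and 2.51 in DC Young, 5.23, 5.17 and 3.26 in DC Dysbiotic, 4.39, 3.69 and 3.29 in DC Old, and 5.74, 5.79 and 6.27 in DC Old-LP. Of the DC Old arrays only A was well above background, so the low level of this group is known only roughly. The second probe had 3.53, 1.86 and 1.86 in DC Old, with A alone well above background, and 4.58, 4.68 and 5.27 in DC Old-LP. Both probes lay higher in DC Old-LP than in DC Old without overlap, with log2 fold changes of 2.14 (SE 0.89, adjusted p = 0.781 in limma) and 2.43 (SE 0.82, adjusted p = 0.537). The size depended on how the background was treated: the leading probe had 0.79 with normexp background correction and 0.76 in the log2 values deposited by the authors. Against DC Young, DC Old had -1.05 at the leading probe and -1.10 at the second, with intervals that include 0 and adjusted p = 1.00 for both, and the leading probe had -0.47 with normexp and -0.43 in the authors' values.

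Tnfsf10 encodes TRAIL, a ligand of death receptors. Its log2 signal was 7.70, 7.58 and 6.38 in DC Young, 7.46, 7.51 and 6.17 in DC Dysbiotic, 7.17, 6.89 and 6.65 in DC Old, and 7.52, 7.51 and 7.38 in DC Old-LP. The C array of DC Old was not well above background here, and the C arrays were the lowest of every group. DC Old-LP was above DC Old on every array, with a log2 fold change of 0.57 (SE 0.43, adjusted p = 1.00 in limma), which was 0.32 with normexp and 0.31 in the authors' values.

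For DC Old-LP relative to DC Old, 6 of 12 ligand probes thus lay higher without overlap, where 5.34% of all probes did. They were the probes of Ltb, Tnfsf14, Tnfsf13b and Tnfsf10 and both of Tnfsf11. None of the 12 lay lower. The median log2 fold change over the leading probes of the 9 genes was 0.69, where the median of all probes was -0.01. For DC Old relative to DC Young the median over the 9 genes was -0.58, where that of all probes was 0.00. The pair of comparisons shares the DC Old arrays, so they are not independent of each other.

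**Figure D2:**
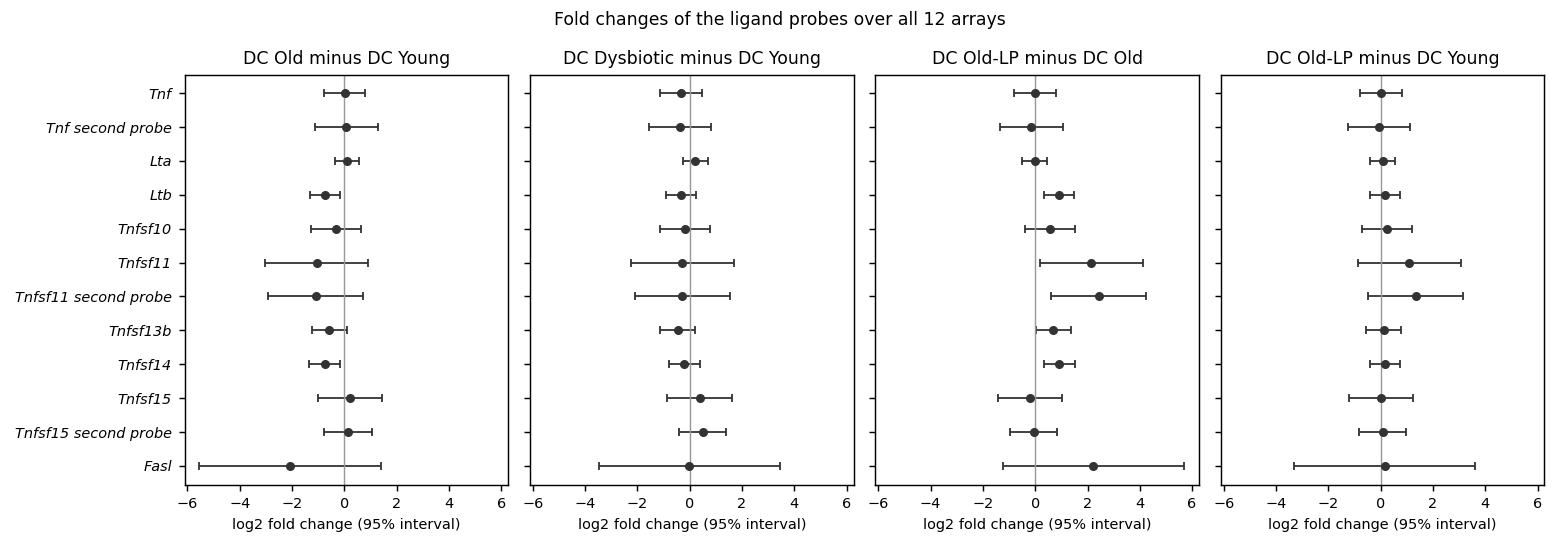
Log2 fold change (x axis) with its 95% interval from the limma fit for each ligand probe (y axis) in 4 comparisons over all 12 arrays. For Ltb and Tnfsf14 the interval lies below 0 for DC Old relative to DC Young and above 0 for DC Old-LP relative to DC Old, and none of the 12 probes passed the adjusted p in any panel.

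Tnf encodes the cytokine TNF, which many cell types make early after LPS. Its leading probe had a log2 signal of 9.47, 9.54 and 9.80 in DC Young, 9.10, 9.17 and 9.54 in DC Dysbiotic, 9.10, 9.20 and 10.55 in DC Old, and 9.61, 9.58 and 9.64 in DC Old-LP. On the A and B arrays DC Old lay below DC Young, and on the C arrays above it. The log2 fold change of DC Old against DC Young was 0.01 with a 95% interval of -0.78 to 0.80, and that of DC Old-LP against DC Old was 0.00 with an interval of -0.80 to 0.79. These intervals do not exclude a change of 0.5 in either direction. Without the C array of DC Old the values were -0.45 and 0.46, neither of which passed. The second Tnf probe had the same order of arrays in DC Old, 7.97, 8.04 and 10.05.

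Lta encodes lymphotoxin α, a soluble or Ltb-anchored ligand made mostly by lymphocytes. Its log2 signal was 6.83, 6.83 and 6.87 in DC Young, 7.21, 6.96 and 7.01 in DC Dysbiotic, 7.18, 7.05 and 6.61 in DC Old, and 6.93, 7.04 and 6.79 in DC Old-LP. The whole range of the 12 arrays was under 1 log2 unit, and the lowest value, on the C array of DC Old, was not well above background. DC Dysbiotic lay above DC Young on every array, by 0.21 (SE 0.21, adjusted p = 1.00 in limma).

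Tnfsf15 encodes TL1A, a ligand of the T cell receptor DR3. Its leading probe had a log2 signal of 7.47, 7.44 and 8.79 in DC Young, 7.86, 7.84 and 9.13 in DC Dysbiotic, 8.01, 7.80 and 8.51 in DC Old, and 7.47, 7.34 and 8.96 in DC Old-LP. The C arrays were the highest of every group at this probe, whereas at the second probe they were the lowest of every group. At the second probe DC Dysbiotic, with 8.49, 8.20 and 8.16, lay above DC Young, with 7.93, 7.94 and 7.51. DC Old had 8.49, 8.49 and 6.81 there, the last not well above background, and DC Old-LP had 7.98, 7.83 and 7.80. On the A and B arrays both probes were thus higher in DC Dysbiotic and DC Old than in DC Young and DC Old-LP. Over all 12 arrays the log2 fold change of DC Dysbiotic against DC Young was 0.37 (SE 0.55) at the leading and 0.49 (SE 0.41) at the second probe, and adjusted p was 1.00 for both in limma.

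Fasl encodes FasL, the death ligand of cytotoxic T and NK cells. Its log2 signal was 9.04, 8.95 and 6.87 in DC Young, 8.99, 8.69 and 7.14 in DC Dysbiotic, 8.50, 8.43 and 1.70 in DC Old, and 8.80, 8.86 and 7.65 in DC Old-LP. The value of 1.70 was not well above background. The log2 fold change of -2.07 (SE 1.56, adjusted p = 1.00 in limma) for DC Old relative to DC Young and that of 2.23 for DC Old-LP relative to DC Old take their size from this array, since without it they were 0.18 and -0.03. On the A and B arrays, matched for slide, they were -0.53 (adjusted p = 0.0552) and 0.36, with both DC Old arrays below both DC Young arrays. With normexp background correction they were -0.89 and 0.97.

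In DC Dysbiotic against DC Young, 0 of 12 ligand probes were called over all 12 arrays. The Lta probe and the second Tnfsf15 probe, 2 of 12, lay higher without overlap, where 5.24% of all probes did, and none lay lower. The median log2 fold change over the 9 genes was -0.21, beside -0.02 for all probes. Ltb had -0.33 and Tnfsf13b -0.47, and neither passed the test (adjusted p = 1.00 in limma for both).

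In DC Old-LP against DC Young, the leading probes of all 9 genes had fold changes above 0 over all 12 arrays, with a median of 0.15. On the A and B arrays the median was -0.06 and 7 of 12 probes had fold changes below 0, so this direction rests on the C arrays, which lie on different slides in these groups. Ltb had 0.16 with a 95% interval of -0.41 to 0.73, Tnfsf14 had 0.17 with an interval of -0.42 to 0.76, and Tnfsf13b had 0.11 with an interval of -0.55 to 0.77. The intervals are too wide to say that the groups were alike. Only the second Tnfsf11 probe, 1 of 12, lay higher without overlap, where 2.43% of all probes did. In DC Old against DC Dysbiotic, Tnfsf14 alone lay lower without overlap, with a log2 fold change of -0.55 (SE 0.26, adjusted p = 1.00 in limma), where 3.19% of all probes did. For DC Old-LP relative to DC Dysbiotic, Tnf, Tnfsf13b and both Tnfsf11 probes, 4 of 12, lay higher without overlap, where 4.32% of all probes did, and the second Tnfsf15 probe, 1 of 12, lay lower, where 5.19% did. Of these Tnfsf13b had 0.58 (SE 0.30, adjusted p = 1.00 in limma), and on the A and B arrays alone it was the 1 ligand probe called, at 0.54 (adjusted p = 0.0262), where 4.81% of all probes were.

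The comparisons were then read within slides. On the A and B arrays alone, 5 of 12 ligand probes were called for DC Old relative to DC Young, where 9.17% of all probes were. Tnfsf11 had -1.97 (adjusted p = 0.00483 in limma), Tnfsf13b -0.74 (adjusted p = 0.00503), Ltb -0.67 (adjusted p = 0.0171) and Tnfsf10 -0.60 (adjusted p = 0.0336), all lower in DC Old. The second Tnfsf15 probe was higher by 0.56 (adjusted p = 0.0486). Tnfsf14 had -0.49, just short of the fold threshold. DC Old B was not well above background for Tnfsf11, so the size of that difference is uncertain. For DC Old-LP relative to DC Old, 6 of 12 were called on the A and B arrays, where 8.24% of all probes were. Ltb (0.68), Tnfsf11 (1.72), Tnfsf13b (0.60) and Tnfsf14 (0.55) were higher, and both Tnfsf15 probes (-0.50 and -0.59) were lower in DC Old-LP. In DC Dysbiotic against DC Young, Ltb (-0.53) and Tnfsf13b (-0.68) were called lower, 2 of 12, where 6.14% of all probes were called. The study describes its sets as independent pools of mice, while the labels do not tie a letter to a pool. Since all A and B arrays share a slide, these p leave out the spread between slides.

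On the C arrays, where each group had 1 array, there was no test. DC Old C was below DC Young C by a log2 difference of -0.88 for Ltb, -1.27 for Tnfsf14 and -0.26 for Tnfsf13b, but above it by 0.27 for Tnfsf10, 0.75 for Tnf and 0.78 for Tnfsf11. These 2 arrays lie on different slides, Tnfsf11 was well above background on neither, and Tnfsf10 was not on DC Old C. Of the 12 probes, 4 had the same sign on the C arrays as on the A and B arrays. DC Old-LP C was above DC Old C on the same slide by 1.34 for Ltb, 1.67 for Tnfsf14, 0.88 for Tnfsf13b and 0.73 for Tnfsf10, in the direction of the A and B arrays. For Tnf the difference was -0.90 on the C arrays and 0.44 on the A and B arrays. With the slide as a block over all 12 arrays, 3 of 12 ligand probes were called for DC Old-LP relative to DC Old, where 3.29% of all probes were: Ltb (adjusted p = 0.0457 in limma) and both Tnfsf11 probes (adjusted p = 0.0244 and 0.0268). Neither Tnfsf11 probe was well above background on any C array or on DC Old B, so the size of that difference is uncertain. In the other comparisons no ligand probe was called with this block, where 2.7% of all probes were for DC Old relative to DC Young and 2.04% for DC Dysbiotic relative to DC Young. For DC Old-LP relative to DC Dysbiotic the share was 0.728%, and for DC Old-LP relative to DC Young and DC Old relative to DC Dysbiotic it was 0.00177% each. For DC Old relative to DC Young, the sign differed between the sets of arrays for Tnf, Lta, Tnfsf10, Tnfsf11 and Tnfsf15. Ltb, Tnfsf14, Tnfsf13b and Fasl had the same sign on both sets in this and in the DC Old-LP comparison, Fasl with the DC Old C value that was not well above background.

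**Figure D3:**
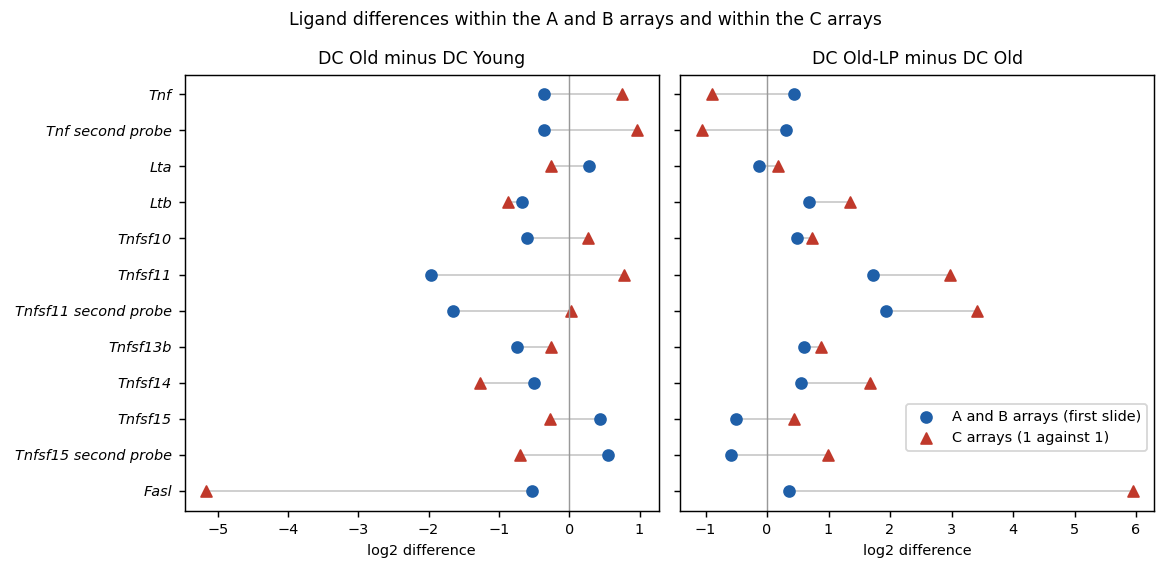
Log2 difference (x axis) of each ligand probe (y axis) within the A and B arrays (circles, 2 against 2) and within the C arrays (triangles, 1 against 1). For DC Old relative to DC Young the C arrays lie on different slides and 4 of 12 probes had the same sign in both sets, while for DC Old-LP relative to DC Old Ltb was higher by 0.68 and 1.34 and Tnf had opposite signs.

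Ltb, Lta, Tnfsf14, Tnfsf11 and Fasl are known to be made by T or NK cells as well. All 11 T cell markers had a probe and 10 were well above background on all 12 arrays. The log2 of their summed signal was 14.89 to 15.54 in DC Young, 14.74 to 15.57 in DC Dysbiotic, 13.77 to 14.46 in DC Old and 14.75 to 15.06 in DC Old-LP, so the sum, like Ltb, was lowest in DC Old. For DC Old relative to DC Young, 9 of 11 T cell markers had a log2 fold change below 0, with a median of -0.72 over all 11, and 5 of 11 were lower without overlap (Cd3d, Cd3e, Cd5, Cd8a and Thy1), where 5.25% of all probes were. The remaining pair went the other way, Cd247 with 0.49 (SE 0.49) and Cd4 with 0.04 (SE 0.30). For DC Old-LP relative to DC Old, 9 of 11 had a fold change above 0, with a median of 0.72, and 6 of 11 were higher without overlap, where 5.34% of all probes were, while Cd247 had -0.62 and Cd4 -0.56.

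Of 8 NK cell markers, 6 had a fold change below 0 for DC Old relative to DC Young, and the log2 of their summed signal was 14.92 to 16.05 in DC Young, 13.68 to 14.93 in DC Old and 14.87 to 15.70 in DC Old-LP. Gzmb, a cytotoxic granule protease, had 13.38, 13.37 and 14.69 in DC Young and 11.33, 11.19 and 12.70 in DC Old. The NK receptors Ncr1 and Klrk1 went the other way. Ncr1, which was well above background on 4 of 12 arrays, had 3.04, 3.09 and 3.91 in DC Young and 4.16, 4.26 and 4.59 in DC Old, and Klrk1 had a fold change of 0.19 (SE 0.72). None of the T or NK cell markers passed the test over all 12 arrays.

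Some markers of other cell types were called. Camp, a neutrophil granule peptide, was called higher for DC Old relative to DC Young at 2.71 (SE 0.43, adjusted p = 0.0208 in limma) and for DC Dysbiotic relative to DC Young at 2.46 (adjusted p = 0.0498). Camp went against most of its list. In each of these comparisons 6 of 8 neutrophil markers had a fold change below 0, with medians of -0.56 and -0.70. Gp9, a platelet glycoprotein, was called higher in the same comparisons at 2.36 (SE 0.36, adjusted p = 0.0184) and 2.27 (adjusted p = 0.0320). Of 7 megakaryocyte and erythroid markers, 5 had a fold change above 0 in each, with medians of 1.04 and 1.26. On the A and B arrays some other lists had medians in the direction of Ltb. Values follow for DC Old relative to DC Young and then for DC Old-LP relative to DC Old. The neutrophil list had -1.55 and 1.80, the B cell list -0.84 and 0.95, and the mast cell and basophil list -0.80 and 0.88. The megakaryocyte and erythroid list went the opposite way, with 1.498 and -1.424. The macrophage list had 0.078 and -0.006. The C array of DC Old, which had the high Tnf value, went against the medians of the neutrophil, the B cell and the mast cell and basophil lists. Its summed neutrophil markers were at 15.74, where the DC Old group began at 12.87. Its summed B cell markers were at 14.07, where the group began at 11.76. Its summed mast cell and basophil markers were at 15.81, beside 15.45 on DC Young C and 15.20 on DC Old-LP C. The part of these cells in the ligand results was not tested.

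**Figure D4:**
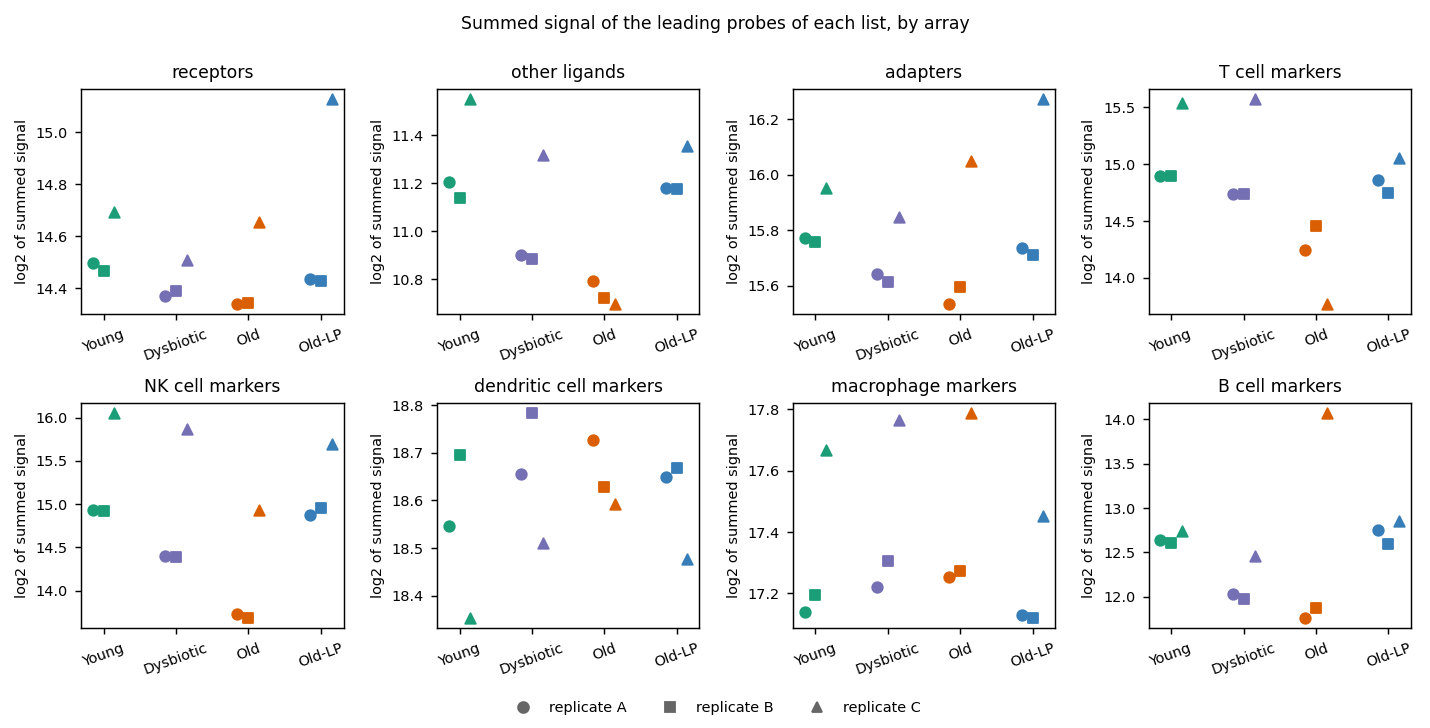
Log2 of the summed signal (y axis) of the leading probes of each gene list on each of the 12 arrays, by group (x axis). T cell markers were lower in DC Old (13.77 to 14.46) than in any other group, while dendritic cell markers lay within 18.35 to 18.78 on all arrays. Sums are weighted to the brightest probes of a list.

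The receptors of these ligands were measured at 14 of 14 genes, 9 of them well above background on all arrays. None was called over all 12 arrays in any comparison between groups. Their median log2 fold change was -0.08 for DC Old relative to DC Young and 0.13 for DC Old-LP relative to DC Old, closer to that of all probes than the median of the ligands. The TNF receptors Tnfrsf1a and Tnfrsf1b had -0.22 (SE 0.94) and 0.19 (SE 0.38) for DC Old relative to DC Young. Ltbr, the receptor of lymphotoxin αβ and LIGHT, had -0.53 (SE 1.95), with 4.71 to 7.76 on the C arrays and 10.51 to 10.79 on the A and B arrays. Tnfrsf14, which encodes HVEM, had 0.32 (SE 0.55), with 7.63, 7.38 and 7.285 in DC Young and 8.79, 8.07 and 6.39 in DC Old. In DC Dysbiotic it had 8.56, 8.38 and 7.78, all above DC Young. Against DC Young, 2 of 14 receptors were called higher in DC Old on the A and B arrays and 2 lower. The share of all probes called there was 9.17%.

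With the replicate letter as a block, 1 of 14 receptors was called for DC Old relative to DC Young, beside 2.18% of all probes. With the slide as a block 2 of 14 were called, beside 2.7% of all probes. Both are receptors of BAFF, the Tnfsf13b product. Tnfrsf13b, which encodes TACI, had a log2 signal of 11.61, 11.54 and 12.95 in DC Young and 10.78, 10.85 and 12.49 in DC Old, lower within each letter. Its log2 fold change was -0.65 (adjusted p = 1.00 in limma), and it was called lower with the replicate letter as a block (adjusted p = 0.0483) and with the slide as a block (adjusted p = 0.0406). Tnfrsf13c, which encodes the BAFF receptor, had -0.68 for DC Old relative to DC Young and 0.86 for DC Old-LP relative to DC Old, called with the slide as a block (adjusted p = 0.0161 and 0.0194) and not with the letter. In the DC Old-LP comparison it was 1 of 14 called with the slide as a block, beside 3.29% of all probes. Tnfrsf17, the third receptor, was well above background on no array.

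Of the remaining receptors, Tnfrsf11b, which encodes the RANKL decoy osteoprotegerin, had the largest fold change in DC Dysbiotic against DC Young, 1.94 (SE 0.47, adjusted p = 0.256 in limma), without overlap, and with the slide as a block it was called (adjusted p = 0.0461). It was well above background on 9 of 12 arrays. In this comparison 2 of 14 receptors were higher without overlap, beside 5.24% of all probes. With the slide as a block 1 of 14 was called higher and 1 lower, beside 2.04% of all probes. RANK itself, encoded by Tnfrsf11a, had 0.00 (SE 0.68) for DC Old relative to DC Young. Fas, the receptor of FasL, had -0.53 (SE 0.30) with every DC Old array below every DC Young array, 1 of 14 receptors, where 5.25% of all probes did so. Tnfrsf25, which encodes DR3, the receptor of TL1A, had 0.37 (SE 0.61). The TRAIL receptor Tnfrsf10b had -0.13 (SE 0.31), and the decoys Tnfrsf22 and Tnfrsf23 had 0.39 (SE 0.26) and -0.03 (SE 0.45).

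Of 8 other ligands of the family, all had a probe, 0 were called over all 12 arrays, and Cd40lg and Tnfsf18 were well above background on no array. Cd70, the ligand of CD27, had 9.01, 8.83 and 9.58 in DC Young, 8.11, 8.12 and 8.40 in DC Old, and 8.71, 8.83 and 9.70 in DC Old-LP. DC Old was thus below both groups on every array. Its log2 fold change for DC Old relative to DC Young was -0.93 (SE 0.36, adjusted p = 0.629 in limma), and it was called with the replicate letter as a block (adjusted p = 0.0370). That was 1 of 8, where 2.18% of all probes were called. With the slide as a block 2 of 8 were called lower, where 2.7% of all probes were called. Tnfsf4, which encodes OX40 ligand, had -0.75 (SE 0.27, adjusted p = 0.538) and Tnfsf8, which encodes CD30 ligand, -1.10 (SE 0.53, adjusted p = 0.901), each lower in DC Old without overlap. With Cd70 these were 3 of 8, where 5.25% of all probes were lower without overlap. For DC Old-LP relative to DC Old the same 3 genes had 0.87, 0.87 and 0.83 for Cd70, Tnfsf4 and Tnfsf8. These 3 of 8 were higher without overlap, where 5.34% of all probes were, and none passed over all 12 arrays. Cd70 and Tnfsf8, 2 of 8, were called with the slide as a block (adjusted p = 0.0276 and 0.0127 in limma), where 3.29% of all probes were. Eda, well above background on 2 of 12 arrays, was lower in DC Old-LP without overlap, 1 of 8, where 4.04% of all probes were.

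The 5 genes for shedding, maturation and mRNA decay of these ligands and the 15 adapter genes were all well above background on all 12 arrays, and none was called over all 12 arrays in any comparison. Adam17, the protease that releases TNF, had 0.50 (SE 0.74) for DC Old relative to DC Young. Zfp36, which encodes an RNA-binding protein that destabilises Tnf mRNA, had 0.83 (SE 0.69). On the A and B arrays both were called, at 0.79 (adjusted p = 0.00727 in limma) and 0.62 (adjusted p = 0.0259). These were 2 of 5, beside 9.17% of all probes. The C arrays differed by -0.08 for Adam17 and 1.25 for Zfp36. For DC Dysbiotic relative to DC Young 2 of 5 were called upward on the A and B arrays, beside 6.14%. For DC Old-LP relative to DC Old 1 of 5 was called downward there, beside 8.24%. The adapters had a median of -0.15 for DC Old relative to DC Young, with 12 of 15 below 0, and of 0.14 for DC Old-LP relative to DC Old, with 13 of 15 above 0. Tnfaip3, which encodes the NF-κB inhibitor A20, differed by 2.30 between the C arrays of DC Old and DC Young and by -0.10 on the A and B arrays, the same split between array sets as Tnf.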

How the data were processed

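RNA was measured on 12 Agilent single-colour arrays, 3 for each of 4 groups. Groups and letters were taken from the sample titles. The authors deposited the scanner intensity of every spot, background subtracted by Agilent Feature Extraction (10.5 per the methods and processing notes, 12.1.1.1 per the file headers), and a table of log2 values for 46302 probes, which was used as an alternative only.

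Of 59305 spots that are not controls, 1068 outlier readings were set to missing, and log2 intensity was quantile normalised between arrays and averaged by probe. Accessions matched 35405 probes to symbols in RefSeq. Computations used limma 3.58.1 (lmFit and eBayes) and the package data.table, version 1.17.8, in R 4.3.3. The model was run on all 12 arrays and 56605 probes with a mean for each group, as the study's methods state, at an adjusted p of 0.05 and an absolute log2 fold change of 0.5, two-sided. The leading probe of a gene has the highest mean signal. All ligand probes and the receptor of each ligand were named, and every other listed gene called over all 12 arrays, while further genes of the lists were picked after their values were seen. The members and lists were chosen with earlier results of these data known. The number of arrays limits the precision, and p measure only the spread between arrays, which may be technical.

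Deviations from the group means correlated at 0.415 to 0.711 between arrays of the same letter and at -0.659 to 0.570 between letters, so the letter was tried as a block. Other alternatives were the slide as a block, the A and B arrays alone, the compared groups alone, a 75th percentile shift, normexp with an offset of 50 on the median signal, the authors' log2 table, a filter on dim probes, the mean over probes of a gene, and each array left out. The fit without a block was tried on simulated arrays with known changes in DC Old and independent noise. Normalisation, the blocks and the A and B fit were not tried there, and no slide or letter effect was simulated.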

Additional observations from a re-analysis of the deposited data

How the results depend on the processing

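Over all 12 arrays 0 ligand probes were called in every comparison, and 0 with the replicate block, with the filter on dim probes, normexp, the 75th percentile shift, the log2 values of the authors, the compared groups alone, or any array left out. The exceptions were the A and B arrays alone, with 5 calls for DC Old relative to DC Young, 2 in DC Dysbiotic relative to DC Young, 6 for DC Old-LP relative to DC Old and 1, Tnfsf13b, in DC Old-LP against DC Dysbiotic, and the slide as a block, with 3 calls for DC Old-LP relative to DC Old. These fits use fewer arrays or remove the slide from the spread. Without the C array of DC Old, the Fasl value was 0.18 for DC Old relative to DC Young, in a range of -3.22 to 0.18 over arrays left out, and -0.029 for DC Old-LP relative to DC Old, in a range of -0.029 to 3.37. The Tnfsf11 value of DC Old-LP against DC Young was -0.25 on the A and B arrays alone and -0.077 without DC Young C, in a range of -0.077 to 1.69. Without DC Young C, values for DC Old relative to DC Young were -2.22 for Tnfsf11 and -0.90 for Tnfsf13b. Among 752 alternative values of leading probes, 735 kept the same call without a reversal, 13 passed newly and 4 reversed. A reversal was counted only where the main value reached the fold threshold. Of the 752 values, 55 changed sign from a main value below that threshold, and these are not counted as reversed. The 75th percentile shift moved the median of all probes to 0.15 for DC Old relative to DC Young, -0.12 in DC Dysbiotic relative to DC Young and -0.12 for DC Old-LP relative to DC Old, and fold changes under it are read relative to these. Probes of Tnfsf11 near background and the dim C arrays limit what can be said.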
